A study of Mus musculus with 5 samples.

Results

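A set of 10 lymphoid genes was followed in the H3K14ac profiles of blood stem and progenitor cells with and without the acetyltransferase HBO1: Il7r, Dntt, Rag1, Rag2, Notch1, Satb1, Ccr9, Ikzf1, Tcf3 and Mef2c. They were chosen by name as genes of early lymphoid priming, and their symbols were matched by Entrez identifier to the deposited count tables. All 10 were found among the 27179 genes of those tables. H3K14ac (histone H3 acetylated at lysine 14) had been profiled by CUT&Tag, a method in which an antibody (here abcam ab52946) guides the Tn5 transposase to cut and tag the DNA around the mark. The cells were bone marrow LSK cells of male C57BL/6 mice, a sorted fraction that lacks lineage markers, carries Sca-1 and Kit, and holds stem cells together with early multipotent progenitors. The control libraries (2) came from Hbo1def/+; T/+ mice and the knockout libraries (2) from Hbo1def/def; T/+ mice, so the controls also carried 1 def allele. Mice of both groups had received poly(I:C) to induce Mx1-cre, a recombinase under an interferon-responsive promoter that acts in blood cells and in other tissues. The labels used here give no age. They also leave it unsaid if each library is from a mouse of its own, and the spread behind the p-values may therefore be technical. HBO1 is encoded by Kat7, and the comparison asks where its loss changed the mark.

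Lymphoid priming is the low-level opening of lymphoid genes in multipotent progenitors before a cell is bound to the B or T lineage. Transcription factors such as Ikaros (Ikzf1), E2A (Tcf3), MEF2C and SATB1 are known to prepare this state in the LSK fraction, and signals through NOTCH1 and the interleukin 7 receptor then direct and sustain T and B cell development. The genes of antigen receptor recombination, Rag1, Rag2 and Dntt, are used later to cut and join receptor gene segments, but low transcription of them already marks the most lymphoid-primed progenitors. H3K14ac is a mark of active promoters and enhancers, and HBO1 is one of the enzymes that place it.

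The start sites of the 10 genes differ in how many CG dinucleotides they hold. In the text below, the CpG ratio is the number of CG dinucleotides over the number that the base composition would give, within 500 bp on each side of the annotated start. It was 0.946 for Tcf3, 0.728 for Notch1 and 0.686 for Satb1, the 3 members at or above 0.6, the value used here to call a start CpG-rich. It was 0.436 for Ikzf1, 0.299 for Mef2c, 0.25 for Dntt, 0.239 for Rag1, 0.179 for Rag2, 0.149 for Il7r and 0.135 for Ccr9. The sequences just upstream of Notch1, a CpG-rich member, and of the neighbouring genes Rag1 and Rag2, 2 CpG-poor members, are shown because fold changes over all genes, given further on, differed with this property and because Rag1 is the member that fell. Each run is the 250 bases before the RefSeq start site (GRCm38.p6), 5′ to 3′ on the gene's strand, with every CG dinucleotide in capitals.
Notch1, chr2:26503823-26504072, minus strand: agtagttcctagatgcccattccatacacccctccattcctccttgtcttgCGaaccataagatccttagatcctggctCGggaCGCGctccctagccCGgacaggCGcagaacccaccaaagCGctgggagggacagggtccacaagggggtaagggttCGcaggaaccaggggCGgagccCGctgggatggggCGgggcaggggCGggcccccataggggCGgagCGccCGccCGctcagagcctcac
Rag1, chr2:101649533-101649782, minus strand: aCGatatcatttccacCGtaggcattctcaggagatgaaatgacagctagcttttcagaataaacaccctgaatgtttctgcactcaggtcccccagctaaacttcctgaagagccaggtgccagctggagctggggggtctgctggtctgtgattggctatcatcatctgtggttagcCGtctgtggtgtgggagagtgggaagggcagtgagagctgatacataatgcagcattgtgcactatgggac
Rag2, chr2:101624462-101624711, plus strand: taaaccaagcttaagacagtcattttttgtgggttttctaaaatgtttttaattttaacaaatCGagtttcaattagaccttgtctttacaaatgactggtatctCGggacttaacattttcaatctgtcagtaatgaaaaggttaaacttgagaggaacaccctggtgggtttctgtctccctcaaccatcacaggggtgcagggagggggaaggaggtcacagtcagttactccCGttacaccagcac
The Notch1 stretch holds 16 CG dinucleotides, the Rag1 stretch 3 and the Rag2 stretch 3. RefSeq lists 17 start sites for the 10 members. For these the ratio was taken over a shorter promoter window, from 250 bases before to 50 after each start, so it is not on the scale of the values above. For Ikzf1 the first listed start lies 963 bp inside the annotated gene, and its promoter window had a ratio of 1.06. For Satb1 the second of 5 starts lies 643 bp inside, with a promoter window ratio of 1.06 against 0.31 at the first. For Mef2c the second of 3 starts lies 19639 bp inside, with a promoter window ratio of 0.61 against 0.11 at the first.

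Reads had been counted by the authors in 3 windows per gene, the gene body and the 5 kb on each side of it. Gene body totals were 12386891 and 10572534 counts in the controls and 4723549 and 6031189 in the knockouts. Downstream totals were 1260351 and 1142652 against 677213 and 732658, and upstream totals 1164409 and 1078248 against 1065978 and 869859. Both knockout totals were thus below both controls in each window class. Unscaled body counts, controls first, overlapped between groups for Notch1 (566, 484, 828 and 482), Ikzf1 (1549, 1174, 1603 and 1136) and Tcf3 (48, 80, 115 and 73). They did not overlap for Mef2c (865, 836, 1278 and 1019). Knockout replicate 1 stood apart, with 16.5% of its counts in upstream windows against 11.4% in knockout replicate 2 and 7.86% and 8.43% in the controls. Levels are given as CPM, counts scaled to a common total of the window class after TMM scaling, so they are relative within a class, and any change common to all windows does not appear in them. Because the libraries are of sorted cell populations, fewer lymphoid-primed cells and less mark per cell cannot be told apart. Kat7, the deleted gene, had a log2 fold change of -0.97 ± 0.47 upstream (SE, edgeR adjusted p = 0.0872) and of 1.06 ± 0.32 over its body (edgeR adjusted p = 0.00668). Counts of a histone mark on Kat7 do not check the deletion.

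Of the 10 members, 2 were higher in the knockout libraries in the upstream windows (Tcf3 and Ikzf1), 1 was lower (Rag1) and 7 did not pass an adjusted p of 0.05 in edgeR's quasi-likelihood test. The background was high: 38.3% of the 23200 genes tested upstream passed, 24.0% higher and 14.3% lower, so 3 of 10 is near the share among all genes. Over gene bodies 4 members were higher (Notch1, Ikzf1, Tcf3 and Mef2c), none was lower and 6 did not pass, where 23.1% of 21393 genes were higher, 15.2% lower and 38.3% passed in all. The higher and lower members there numbered 3 and 0 in DESeq2, 4 and 0 in limma, 4 and 0 at an unadjusted p under 0.05, and 4 and 1 without knockout replicate 2, where Rag1 was lower. Downstream, 7 members had enough counts for a test, and 1 was higher (Tcf3), against 10.8% of 21566 genes higher, 2.29% lower and 13.1% passing in all. The median log2 fold change of the members was -0.27 upstream (-0.09 over all genes tested), 0.23 over gene bodies (0.02) and -0.18 downstream (-0.03). Both knockout libraries lay above both controls for 3 members upstream, 5 over gene bodies and 1 downstream, and below both for 4, 1 and 2. Among all genes, 37.8% lay above and 39.9% below upstream (77.8% in all), 40.6% and 39.4% over gene bodies (80.0%) and 29.9% and 32.7% downstream (62.6%), so such separation was common. These calls rest on few libraries: each of the 3 upstream calls failed the threshold without any 1 of the 4 libraries, with a log2 fold change of 1.35 to 1.98 for Tcf3, 1.17 to 1.93 for Ikzf1 and -2.28 to -1.21 for Rag1.

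**Figure D1:**
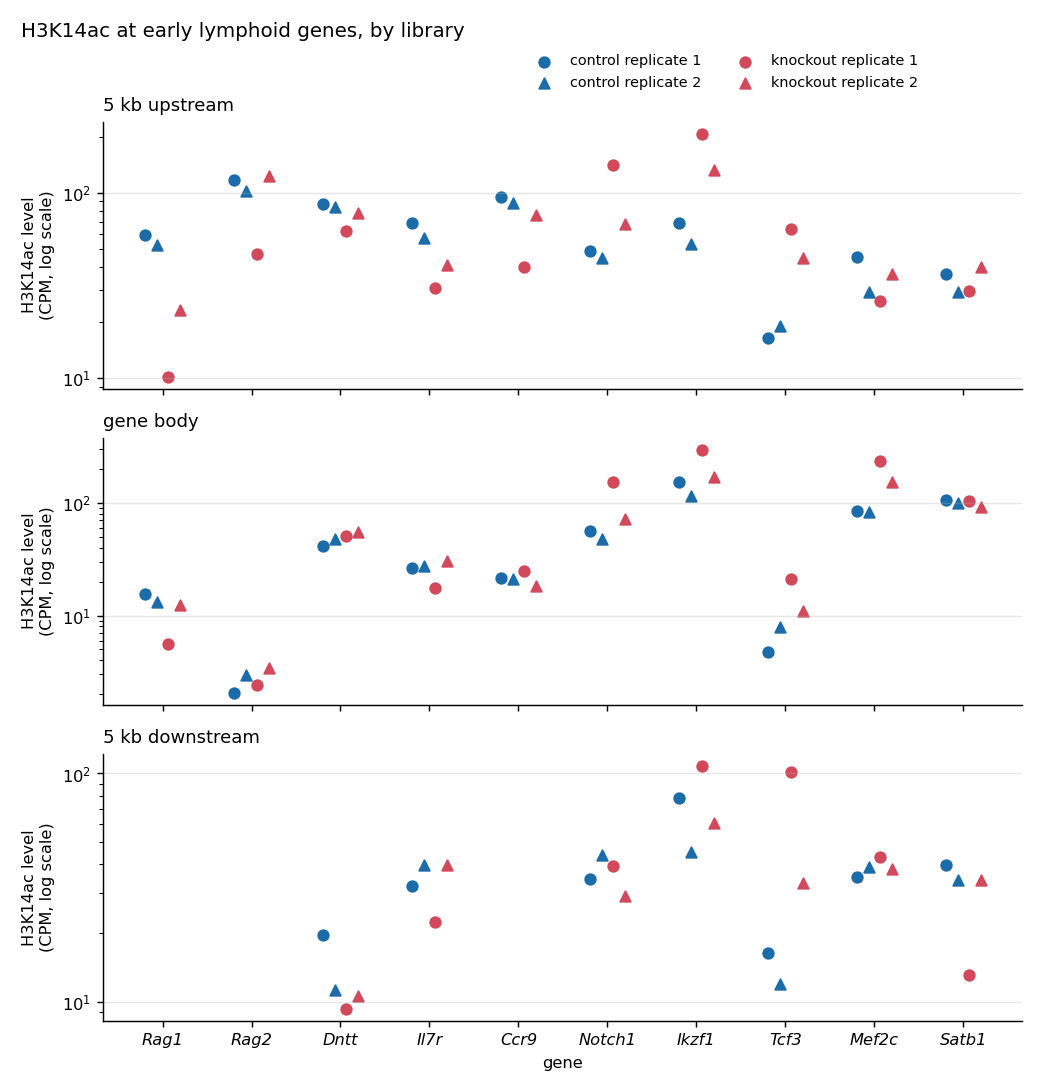
TMM-scaled CPM of the 10 genes in each of the 4 libraries (points), in the upstream, gene body and downstream windows, on a log axis. Knockout replicate 1 is the library farthest from the controls for several genes, as for Notch1 upstream (141 against 48.6 and 44.7 in the controls).

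Rag1, which encodes the catalytic subunit of the recombinase that cuts antigen receptor genes, lost signal upstream. Its gene (Entrez 19373, minus strand) lies at chr2:101638252-101649532, and the 5 kb before its start held 59.0 and 52.2 CPM in the controls and 10.2 and 23.3 CPM in the knockouts. The groups did not overlap, and the raw counts behind these levels were 68, 63, 9 and 21. The log2 fold change was -1.72 ± 0.48 (SE, edgeR adjusted p = 0.00253), a 3.3-fold fall and at percentile 3.25 of all genes tested upstream. Over the gene body Rag1 held 15.5, 13.3, 5.55 and 12.5 CPM in control replicates 1 and 2 and knockout replicates 1 and 2. There the knockouts were also below both controls, but knockout replicate 2 was close to them, and the log2 fold change of -0.66 ± 0.44 did not pass (edgeR adjusted p = 0.219). It was -0.17 without knockout replicate 1 and passed at -1.32 without knockout replicate 2 (edgeR adjusted p = 0.0166). The upstream fall was not called when libraries were scaled on their totals pooled over the 3 window classes (-1.18, edgeR adjusted p = 0.0605) or on olfactory and vomeronasal receptor genes (-1.01, edgeR adjusted p = 0.12).

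Rag2, the partner subunit, lies beside Rag1 in the opposite orientation (Entrez 19374, plus strand, chr2:101624712-101632528), with 5723 bp between the ends of the 2 genes. Its upstream window held 118, 103, 46.6 and 124 CPM in control replicates 1 and 2 and knockout replicates 1 and 2. Knockout replicate 2 was above both controls and knockout replicate 1 below them, so the groups overlapped and the log2 fold change of -0.37 ± 0.57 did not pass (edgeR adjusted p = 0.609). Per kb this window was the highest upstream window of the 10 in the controls, at 22.1 ± 2.16 CPM per kb (SD, n = 2), percentile 95.6 of all genes tested. The body of Iftap also lies in that window, so its signal cannot be assigned to Rag2 alone. The body of Rag2 was among the lowest of the members, at 0.324 ± 0.0813 CPM per kb in the controls (SD, n = 2) and 2.07, 2.97, 2.4 and 3.43 CPM by library, from 21, 30, 13 and 23 counts. Of the Rag2 body, 55.26% lies within the gene Iftap, and whether reads shared by 2 genes were counted is not given in the sources used here. Windows covered to at least 90% by another gene's window of the same class held a median of 0 control counts over gene bodies (1637 genes), against 179 for bodies that no other overlapped (19104 genes). Downstream, 85.54% of the Rag1 and Rag2 windows are shared with each other, and counts were 0, 3, 6 and 4 for Rag1 and 5, 9, 1 and 0 for Rag2, and neither was tested.

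Dntt, which encodes the polymerase TdT that adds bases at receptor gene joints, did not pass in any window. It lies at chr19:41029275-41059525 (Entrez 21673, plus strand). Upstream it held 87.7 and 84.5 CPM in the controls and 62.5 and 77.6 CPM in the knockouts, which were below both controls (log2 fold change -0.3 ± 0.53, edgeR adjusted p = 0.66). Over the gene body it held 41.6 and 48.1 CPM in the controls and 50.9 and 54.7 CPM in the knockouts, which were above both (0.24 ± 0.3, edgeR adjusted p = 0.54). The upstream and body values thus lay on opposite sides of the controls. Downstream the values were 19.6, 11.2, 9.32 and 10.6 CPM, in a window of which 48.66% is shared with Opalin.

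Il7r, the receptor chain through which interleukin 7 supports lymphoid progenitors, was at lower values upstream without passing the test. Its upstream window, before the start of a gene at chr15:9506159-9529941 (Entrez 16197, minus strand), held 68.6 and 57.2 CPM in the controls and 30.7 and 41.0 CPM in the knockouts. The groups did not overlap, and the log2 fold change was -0.81 ± 0.48 (edgeR adjusted p = 0.159). Over the body the 4 libraries held 26.3, 27.4, 17.4 and 30.4 CPM, with knockout replicate 1 below and knockout replicate 2 above the controls (-0.16 ± 0.35, edgeR adjusted p = 0.727). Downstream the libraries held 32.1, 39.9, 22.4 and 39.6 CPM, with knockout replicate 1 below both controls and knockout replicate 2 between them.

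Ccr9, a chemokine receptor that guides progenitors to the thymus, had high upstream signal in the controls, at 18.2 ± 0.957 CPM per kb (SD, n = 2), percentile 91.8 of all genes tested. The gene lies at chr9:123767211-123783457 (Entrez 12769, plus strand). The upstream values were 94.6 and 87.8 CPM in the controls and 39.8 and 76.4 CPM in the knockouts, which lay below both controls but far from each other (log2 fold change -0.65 ± 0.52, edgeR adjusted p = 0.309). Its body held 21.6, 21.2, 25 and 18.2 CPM, a log2 fold change of 0.01 ± 0.36 with the 2 knockout libraries on opposite sides of the controls. Its downstream window, 79.16% of which is shared with Fyco1, held 1 or 2 counts in every library and was not tested.

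Notch1, the receptor whose activation commits progenitors to the T lineage, was higher over its body in the knockouts. The gene lies at chr2:26457902-26503822 (Entrez 18128, minus strand) and its body held 55.9 and 47.9 CPM in the controls and 153 and 71.9 CPM in the knockouts. Both knockout libraries were above both controls, knockout replicate 1 by far the more, and the log2 fold change was 1.11 ± 0.3 (edgeR adjusted p = 0.00286, 2.16-fold). Upstream the pattern was the same, with 48.6, 44.7, 141 and 67.6 CPM, but the log2 fold change of 1.16 ± 0.53 did not pass (edgeR adjusted p = 0.0667). In the 5 kb after its end the groups overlapped, at 34.4, 43.9, 39.2 and 29.0 CPM. The body call failed the threshold when control replicate 1 (log2 fold change 1.22), control replicate 2 (1.0) or knockout replicate 1 (0.5) was left out, and after a correction for GC content (0.55).

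Ikzf1, which encodes the zinc finger factor Ikaros that opens the lymphoid programme, was higher upstream and over its body. It lies at chr11:11684962-11772930 (Entrez 22778, plus strand). The upstream window held 68.6 and 53.0 CPM in the controls and 209 and 133 CPM in the knockouts, with no overlap (log2 fold change 1.49 ± 0.62, edgeR adjusted p = 0.0437, 2.81-fold). The body held 153 and 116 CPM in the controls and 296 and 169 CPM in the knockouts (0.79 ± 0.31, edgeR adjusted p = 0.0342, 1.73-fold). Knockout replicate 2 was close to the higher control there, and without knockout replicate 1 the body value was 0.37 and did not pass. Leaving out control replicate 1 (0.99) or control replicate 2 (0.6) ended the body call too, as did the DESeq2 Wald test (0.78, adjusted p = 0.059) and the edgeR fit with no filter (0.8, adjusted p = 0.0537), and library totals (1.28) or the GC correction (1.37) ended the upstream call. Downstream the libraries overlapped, at 78.3, 45.5, 108 and 60.7 CPM.

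Tcf3, which encodes the E2A proteins required for B cell commitment, was the only member higher in all 3 windows. Its controls were low: upstream 16.5 and 19.1 CPM, with 63.6 and 44.3 CPM in the knockouts (log2 fold change 1.59 ± 0.47, edgeR adjusted p = 0.00421, 3.02-fold). Over the body, at chr10:80409541-80433976 (Entrez 21423, minus strand), the controls held 4.74 and 7.92 CPM and the knockouts 21.3 and 10.9 CPM (1.34 ± 0.45, edgeR adjusted p = 0.0155, 2.53-fold). In each of these windows both knockout libraries were above both controls. Downstream the controls held 16.4 and 12 CPM and the knockouts 101 and 33.0 CPM (2.18 ± 0.48, edgeR adjusted p = 0.00544, 4.54-fold). That window also holds the start of Uqcr11, a gene of the respiratory chain, whose own upstream window was higher by 1.92 ± 0.48 on the log2 scale (edgeR adjusted p = 0.000688), so the downstream reads cannot be assigned to Tcf3. Without knockout replicate 1 the Tcf3 values were 0.81 over the body and 1.21 downstream (edgeR adjusted p = 0.227), and neither passed. The body call also did not hold when control replicate 1 (1.01) or control replicate 2 (1.74) was left out, or with the GC correction (0.61, edgeR adjusted p = 0.251).

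Mef2c, a MADS-box factor that favours the lymphoid over the myeloid fate of early progenitors, was higher over its body, while its upstream change did not pass. The gene spans chr13:83504017-83667079 (Entrez 17260, plus strand), and its body held 85.4 and 82.7 CPM in the controls and 236 and 152 CPM in the knockouts. The groups were far apart, with a log2 fold change of 1.21 ± 0.3 (edgeR adjusted p = 0.00104, 2.31-fold). Upstream the libraries held 45.1, 29.0, 26.1 and 36.6 CPM and overlapped (-0.24 ± 0.46, edgeR adjusted p = 0.687), and downstream they held 35.2, 39.1, 42.9 and 38.2 CPM (0.12 ± 0.35, edgeR adjusted p = 0.851). The body rise was the member call that stayed past the threshold without knockout replicate 1 (0.89, edgeR adjusted p = 0.0138) and after the GC correction (1.54). It was lost without control replicate 1 (1.22, edgeR adjusted p = 0.156) and without control replicate 2 (1.17, edgeR adjusted p = 0.0935).

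Satb1, a chromatin organiser of lymphocytes that is also active in stem cells, showed no change that passed the test. Its body, at chr17:51736187-51833290 (Entrez 20230, minus strand), held 107, 99.3, 103 and 92.3 CPM in control replicates 1 and 2 and knockout replicates 1 and 2. These values overlapped within a narrow range, and the log2 fold change was -0.08 ± 0.28 (edgeR adjusted p = 0.834). Upstream the values were 36.5, 29.0, 29.5 and 39.9 CPM (0.09 ± 0.46, edgeR adjusted p = 0.888). Downstream, knockout replicate 1 was low at 13.1 CPM beside 39.9 and 34.3 CPM in the controls and 34.3 CPM in knockout replicate 2 (-0.59 ± 0.44, edgeR adjusted p = 0.402).

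**Figure D2:**
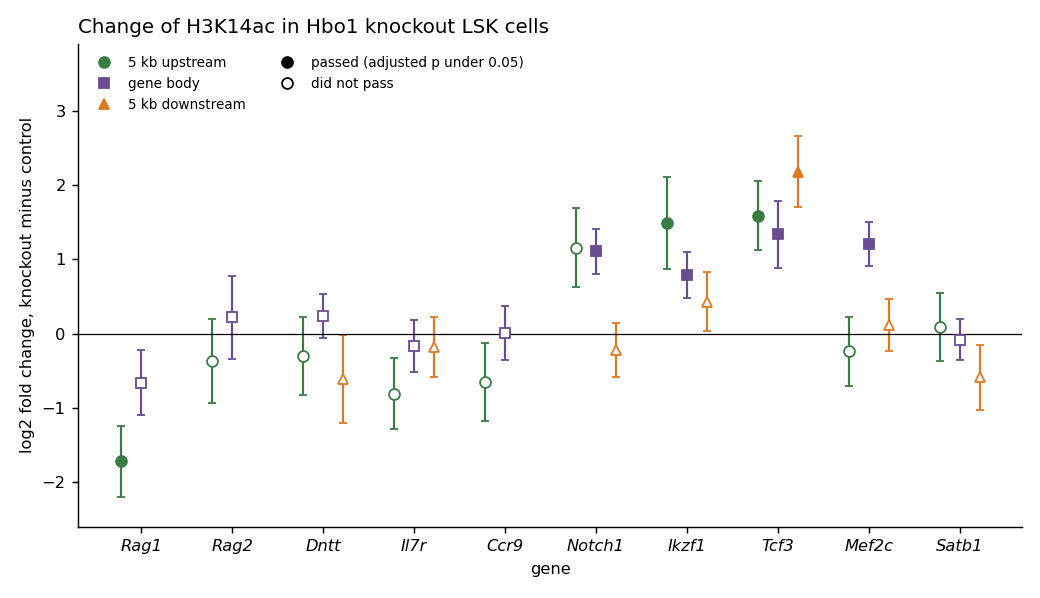
Log2 fold change, knockout over control, of each gene in each window class, with bars of 1 standard error from edgeR and filled points for those past an adjusted p of 0.05. Tcf3 lies above 0 and is filled in all 3 classes, Rag1 lies below 0 upstream at -1.72, and Mef2c lies at 1.21 over the body and near 0 in both flanks.

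Whether the upstream window and the body of the same gene changed by different amounts was tested as an interaction in 1 model over both classes, with the library as a term. Mef2c was the member that passed, with an upstream change lower than its body change by -1.39 ± 0.41 on the log2 scale (edgeR adjusted p = 0.0246). Among 19996 genes tested, 15.5% passed, 5.27% with the upstream change the lower, so 1 of 10 members cannot be told from the background. At an unadjusted p under 0.05 there were 2 members lower and 1 higher, Mef2c and Rag1 (-1.06 ± 0.41, edgeR adjusted p = 0.0867) and Ikzf1 (0.72 ± 0.32, edgeR adjusted p = 0.149). The differences for Tcf3 (0.28, edgeR adjusted p = 0.723) and Notch1 (0.05, edgeR adjusted p = 0.952) did not pass. The Mef2c call did not hold with pooled totals (-1.05) or receptor scaling (-1.18). Leaving out control replicate 1 (-1.07), control replicate 2 (-1.67) or knockout replicate 1 (-0.85) also ended it.

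The same contrast can be read as counts per kb upstream over counts per kb in the body, within each library. For Ikzf1 this ratio was 0.884 and 0.945 in the controls and 1.99 and 1.83 in the knockouts, so upstream signal went from below to above that of the body. For Mef2c it went the other way, from 1.96 and 1.37 in the controls to 0.587 and 1.06 in the knockouts. For Rag1 it was 0.977 and 1.06 in the controls and 0.677 and 0.564 in the knockouts. The groups did not overlap for these 3 genes or for Dntt, Notch1, Satb1 and Tcf3, with the knockouts above for 4 members and below for 3. Among all 19996 genes the knockouts were above both controls for 41.8% and below both for 17.2%. The median over all genes was 0.842 and 0.874 in the controls and 1.11 and 1.01 in the knockouts, so the knockout libraries as a whole moved in the direction of Ikzf1. Rag2 had the highest ratios, 10.1, 6.43, 4.91 and 7.58, on a body most of which is shared with Iftap.

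**Figure D3:**
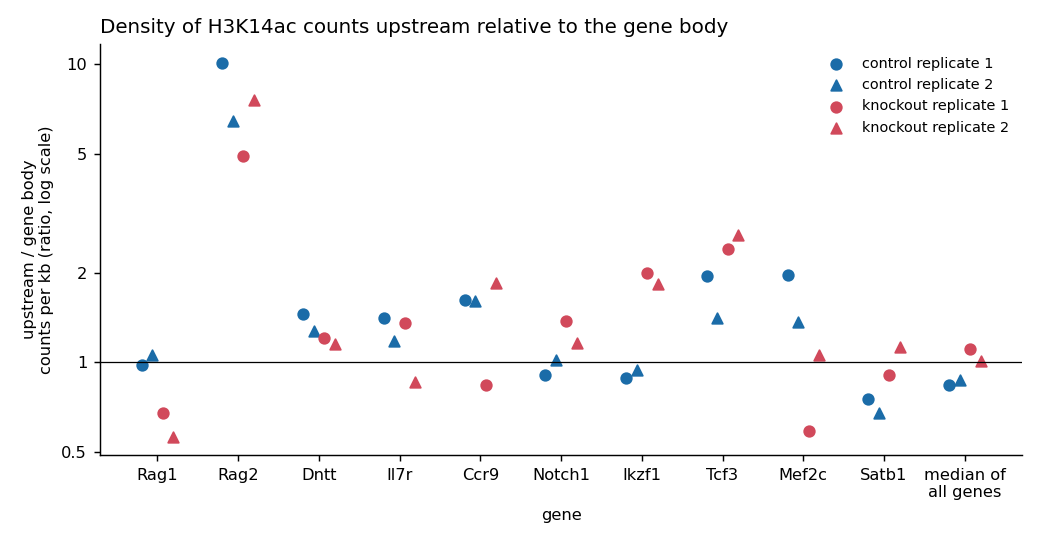
Counts per kb upstream divided by counts per kb over the gene body in each library (points, log axis) for the 10 genes, with the median of all genes. Mef2c lies at 1.96 and 1.37 in the controls and at 0.587 and 1.06 in the knockouts, and Ikzf1 at 0.884 and 0.945 against 1.99 and 1.83.

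Across all genes, the fold change ran with the CpG ratio at the start, and most members lay within the same range. Upstream, the median log2 fold change was -0.82 for genes with a ratio under 0.2 (quartiles -1.25 and -0.26), -0.71 between 0.2 and 0.4, -0.15 between 0.4 and 0.6, 0.76 between 0.6 and 0.8 (quartiles -0.13 and 1.63) and 1.18 between 0.8 and 1 (quartiles 0.35 and 1.94). Genes with a CpG-rich start were higher in 43.4% and lower in 3.13% of 9338 upstream tests, and the others higher in 10.8% and lower in 22.2% of 12473. The signs of these values depend on TMM scaling, and the bins were not refitted under other scalings. The upstream median of all genes rose by 0.56 with pooled totals and by 0.77 with receptor scaling. Lower calls upstream went from 3328 to 458 and 87. The bins are therefore read relative to each other. Il7r, Rag2 and Ccr9, in the lowest bin, had upstream values of -0.81, -0.37 and -0.65, each within the quartiles of that bin, as were Dntt (-0.3) and Mef2c (-0.24) in theirs. Notch1, at 1.16, and Tcf3, at 1.59, lay within the quartiles of their bins. Rag1, at -1.72, was lower than the lower quartile of its bin (-1.17), and Satb1, at 0.09, was below the median of its bin. Ikzf1, at 1.49, was above the upper quartile of its bin (0.85), although the ratio of 0.436 was taken at the annotated start and not at the RefSeq start 963 bp inside the gene. Over bodies, 4 members were above the upper quartile of their bins: Mef2c at 1.21 and Dntt at 0.24 (upper quartile 0.23), and Rag2 at 0.22 and Ccr9 at 0.01 (upper quartile -0.02). For Mef2c too, the ratio of 0.299 was taken at the annotated start and not at the RefSeq start 19639 bp inside the gene. This is a description of where the members lie, and the part of base composition in their values was measured only through the GC correction given above.

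**Figure D4:**
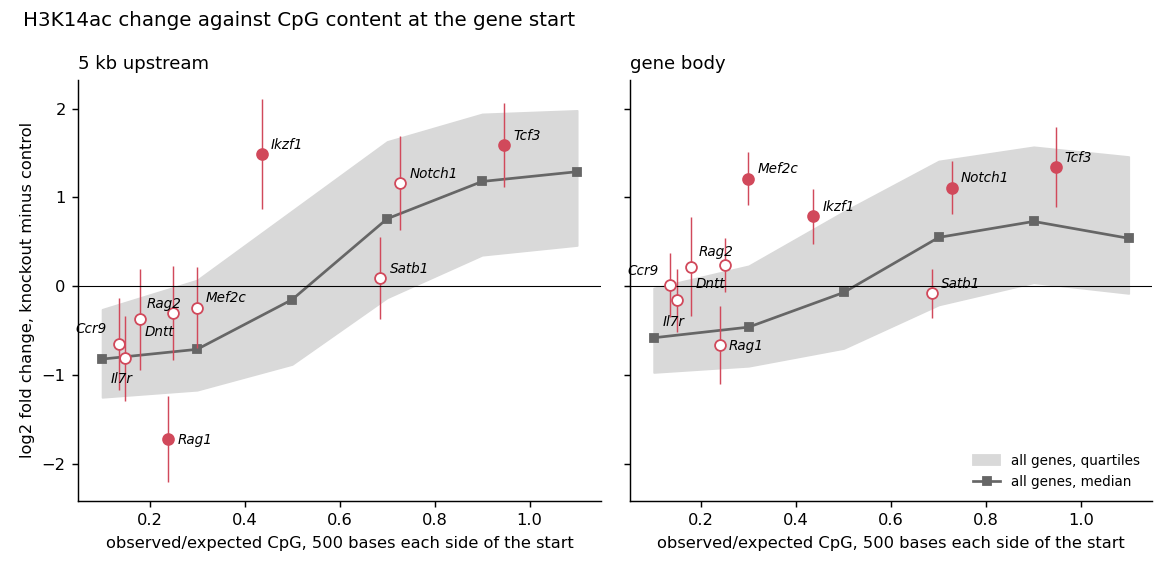
Log2 fold change, knockout over control, against the CpG ratio within 500 bp of the annotated start, upstream and over gene bodies, for the 10 genes (labelled points) with the median and quartiles of all genes in bins of the ratio. The median rises from -0.82 to 1.18 upstream between ratios under 0.2 and ratios of 0.8 to 1, with Rag1 below and Ikzf1 above the quartiles of their bins.

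The promoters were also searched for motifs of factors among the members, over the 300 bases from 250 before to 50 after a RefSeq start, on both strands, and members are counted here by their first listed start. The E-box CANNTG, bound by E2A, was present in 8 of the 10 members and in 72.3% of all 32851 promoters. The Ikaros core GGGAA was present in 5 members and in 62.7% of all promoters, and the RBPJ site GTGGGAA, which contains that core, in 1 member, Rag1, and in 6.38% of all. At later starts GTGGGAA was also present at the fifth of Satb1, and GGGAA at later starts of Satb1, Ikzf1 and Mef2c. The MEF2 motif, read as CTA and TAG with 4 bases of any kind between them, was in none of the 10 and in 3.69% of all. A match describes the letters only.

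In the controls the 10 genes differed in signal per kb of gene body. Ikzf1 was the highest at 1.55 ± 0.3 CPM per kb (SD, n = 2), followed by Dntt at 1.48, Ccr9 at 1.32, Rag1 at 1.28, Il7r at 1.13, Notch1 at 1.13 and Satb1 at 1.06. These 7 genes lay above the median of all genes, 0.856 CPM per kb. Mef2c at 0.516, Rag2 at 0.324 and Tcf3 at 0.258 ± 0.0917 (SD, n = 2) lay below it, Tcf3 at percentile 9.44. The control replicates overlapped between Ikzf1 and Dntt, between Ccr9 and Rag1, between Il7r and Notch1, between Notch1 and Satb1, and between Rag2 and Tcf3, so the order within these pairs is not larger than the spread. Upstream, Tcf3 was again the lowest, at 3.56 ± 0.363 CPM per kb (SD, n = 2), under the median of 6.01 for all genes. Rag2, Ccr9 and Dntt, members with CpG-poor starts, were the highest there, at 22.1, 18.2 and 17.2 CPM per kb, followed by Il7r at 12.6 and Ikzf1 at 12.2.

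For each member tested in all 3 windows, the gene with the most similar profile was found among 15146 genes. Similarity was the Euclidean distance over 12 log2 CPM values (4 libraries, 3 windows), so it reflects levels as well as changes. Symbols beginning with Gm or LOC or ending in Rik were left out. The nearest were Dpf2 for Tcf3 (distance 1.03), Wasf2 for Notch1 (1.16), Snx30 for Ikzf1 (1.39), B4galt1 for Mef2c (1.45), Ccdc93 for Satb1 (1.17), Nrip3 for Il7r (0.968) and BC016579 for Dntt (1.12). None of these 7 is another member, which was likely beforehand with so few members among 15146 genes.

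A wider list of 90 lymphoid genes, not holding the 10, gave more higher than lower calls upstream: 25 of 87 tested were higher, 2 lower and 60 did not pass, with a median log2 fold change of 0.7 against -0.09 for all genes, of which 24.0% were higher and 14.3% lower. The list's median was 0.39 after the GC correction, 0.5 with library totals and 1.53 with receptor scaling. The median of all genes was -0.27 with library totals and 0.68 with receptor scaling. This list too was chosen with earlier results of these data known, and its CpG ratios were not compared with those of all genes. Under other scalings and the GC correction 20 to 46 were higher and 0 to 3 lower, but far fewer passed with 1 library left out: 0 higher when that was control replicate 1, 3 for control replicate 2, 0 for knockout replicate 1 and 14 for knockout replicate 2. Among them Mef2d, a paralogue of Mef2c, held 8.68 and 10.8 CPM in the controls and 305 and 131 CPM in the knockouts (log2 fold change 4.47 ± 0.72, edgeR adjusted p = 8.92e-08). Rbpj, the DNA-binding partner of NOTCH1, went from 17.4 and 20.7 CPM to 264 and 116 CPM (3.31 ± 0.65, edgeR adjusted p = 1.11e-05), and Jak3, a kinase of interleukin 7 signalling, from 0 and 3.31 CPM to 18.2 and 11.1 CPM (3.02 ± 0.74, edgeR adjusted p = 0.000457). The groups did not overlap for any of these 3 genes. Starts of other genes within the flanks were looked for at the 10 members only, so upstream reads may belong to a neighbour. The 2 lower genes were Ly6d, a surface marker of B-biased progenitors (-1.51 ± 0.63, edgeR adjusted p = 0.0434), and Heyl, a NOTCH target (-1.44 ± 0.52, edgeR adjusted p = 0.0206). By group, 6 of 11 tested genes of V(D)J recombination and end joining were higher upstream, 4 of 11 of the IL7 and FLT3 genes and 8 of 28 lymphoid transcription factors, with 0 lower in edgeR. At an unadjusted p under 0.05 the lower genes in these groups numbered 0, 0 and 1, in DESeq2 0 in each and in limma 0, 0 and 1. Of the Notch pathway 4 of 19 were higher and 1 lower, and of the chemokine and surface genes 3 of 18 and 1.

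Over gene bodies 27 of the 88 tested genes of that list were higher and 9 lower, with a median of 0.16 against 0.02 for all genes, of which 23.1% were higher and 15.2% lower. With 1 library left out the counts were 10 and 0 (control replicate 1), 17 and 1 (control replicate 2), 14 and 2 (knockout replicate 1) and 32 and 15 (knockout replicate 2), and they were 35 and 0 with receptor scaling. The largest rises were Crlf2, a receptor chain for the cytokine TSLP (5.67 ± 0.47, edgeR adjusted p = 6.82e-15), the NOTCH target Hes1 (4.2 ± 0.64, edgeR adjusted p = 3.88e-07) and Id3, an inhibitor of E proteins (3.63 ± 0.77, edgeR adjusted p = 0.000153). Crlf2 held 1.09 and 0.891 CPM in the controls and 72.1 and 30.3 CPM in the knockouts. Hes1 held 0.691 and 0.297 CPM against 12.2 and 6.56 CPM, and Id3 0 and 0.396 CPM against 2.4 and 2.83 CPM. The control levels of these genes were near 0, so the size of their fold changes is uncertain. The largest falls were in Bcl11b, a T cell commitment factor (-1.17 ± 0.3, edgeR adjusted p = 0.00138), the NOTCH ligand gene Dll1 (-1.15 ± 0.45, edgeR adjusted p = 0.0392) and Ebf1, a B cell commitment factor (-1.1 ± 0.34, edgeR adjusted p = 0.00773). Ebf1 held 708 and 566 CPM in the controls and 242 and 352 CPM in the knockouts, and Bcl11b 112 and 75.9 CPM against 39.4 and 43.7 CPM. Of the lymphoid transcription factors, 11 of 30 bodies were higher and 5 lower, beside the 23.1% and 15.2% of all genes. Downstream 14 of 82 were higher and 0 lower in edgeR (also 0 in DESeq2 and limma, and 4 at an unadjusted p under 0.05), where 10.8% of all genes were higher and 2.29% lower. The rises were led by Crlf2 (4.49 ± 0.73, edgeR adjusted p = 0.000871), Id1 (3.71 ± 0.88, edgeR adjusted p = 0.00859) and Id3 (2.99 ± 0.56, edgeR adjusted p = 0.00189). Neighbouring starts in these downstream windows were not looked for either. The number of higher genes downstream was 3 without control replicate 1 and 5 without control replicate 2, and the list's median of 0.05 was -0.16 with library totals.

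Markers of the sorted fraction and of other cell types were summed over gene bodies. The calls given with them stand beside 23.1% higher and 15.2% lower among all genes tested there. The 12 LSK markers held 1800 and 1600 CPM in the controls and 1300 and 1430 CPM in the knockouts, with 2 higher and 1 lower. The 7 B cell markers held 284 and 303 CPM in the controls and 160 and 183 CPM in the knockouts (1 lower of 6 tested, Ms4a1 at 0 in every library). The 7 T cell markers held 117, 113, 124 and 107 CPM (1 higher, 1 lower), the 7 granulocyte and monocyte markers 153, 116, 174 and 130 CPM (1 higher), and the 5 erythroid markers found 74.9, 66.5, 72.7 and 55.6 CPM (1 higher). The 7 stromal and endothelial markers held 622 and 488 CPM in the controls and 304 and 370 CPM in the knockouts (4 lower). Over bodies the LSK, B cell and stromal sums were below both controls in both knockout libraries. In the flanks this held for the stromal sums only. LSK sums were 818 and 635 CPM in the controls and 911 and 817 CPM in the knockouts upstream, and 581 and 591 against 1030 and 724 CPM downstream. B cell sums were 1480 and 891 against 950 and 836 CPM upstream, and 450 and 415 against 569 and 468 CPM downstream. The part of these cell types in the members' values was not tested. The median control signal was 1.59 CPM per kb for LSK markers, 2.06 for granulocyte and monocyte markers, 1.57 for B cell markers, 1.41 for stromal and endothelial markers, 1.28 for T cell markers and 0.484 for erythroid markers. Of the lists of other cell types, that of erythroid markers was thus far below the LSK list, and the others were near or above it.

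**Figure D5:**
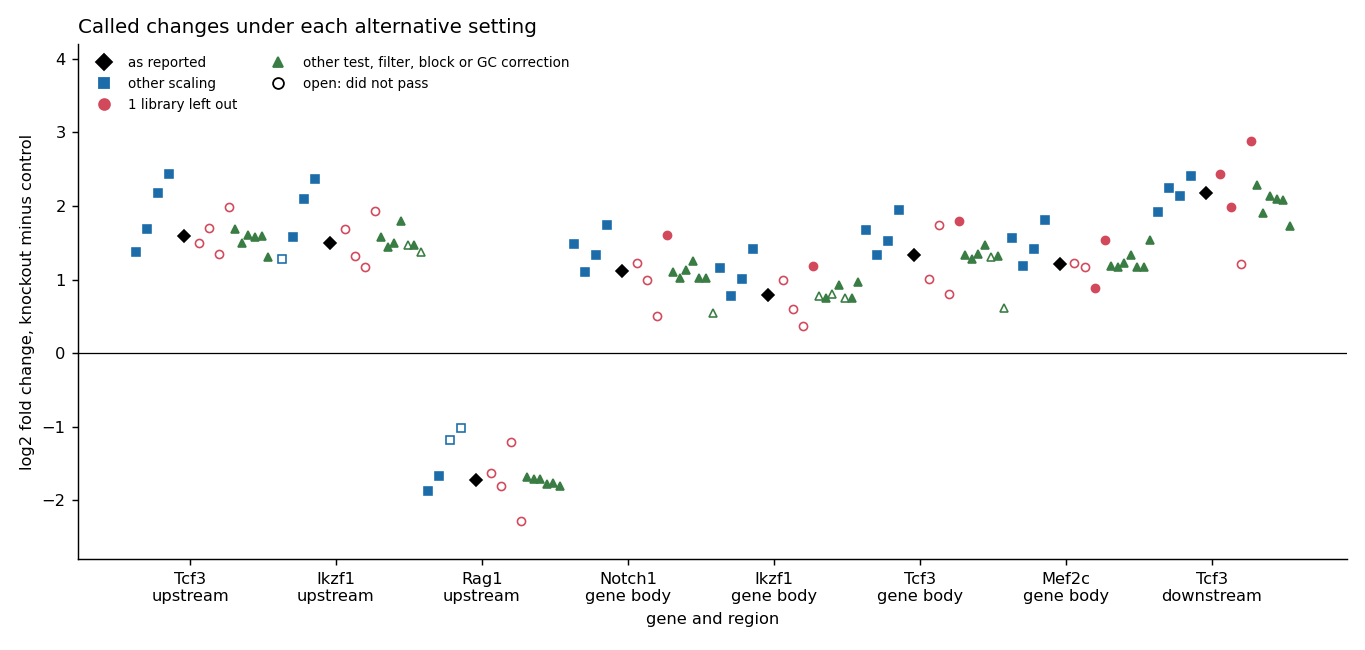
Log2 fold change of the called members under each alternative scaling, test, filter, correction and left-out library, filled where the adjusted p stayed under 0.05. All values kept their direction, and open points are most frequent among the settings that leave out 1 library.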

How the data were processed

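The deposited files hold read counts per Entrez gene, made by the authors for 3 windows (gene body, 5 kb upstream of the start, 5 kb downstream of the end), per the file headers. Counting with featureCounts on mm10 is named in the submitters' processing notes. Which aligner, gene annotation, strand setting, duplicate filter or spike-in was used is not given in the sources used here. Between the authors' series tables and single-library files, 0 counts differed. The gene body length in bp is a deposited column, used here for counts per kb. The HBO1 library was not analysed here.

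Symbols, positions, CpG ratios and promoters came from RefSeq on GRCm38.p6 by Entrez identifier (25275 of 27179 genes, 93.0%, had a symbol). The deposited and annotated spans differ slightly for some members, so the start the authors used may differ. The members and gene lists were chosen with earlier results of these data known.

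Each window class was fitted on all genes with edgeR 4.0.16 (R 4.3.3): filterByExpr (minimum count 10, minimum total 15), TMM scaling, the quasi-likelihood F-test and Benjamini-Hochberg adjustment at 0.05. The interaction was fitted over upstream and body columns with a library term. Standard errors are the log2 fold change divided by the square root of F. DESeq2 1.42.0 and limma 3.58.1 (prior count 2) served as alternatives, with other scalings and filters, each library left out, and a block on the replicate number. Added after seeing the data were a GC correction (loess span 0.3) and a crossed block. Receptor scaling drew on 1479 olfactory and vomeronasal receptor genes, of which those with any counts in the window class were used. Replicate libraries differed by more than counting noise (chi-square per degree of freedom 2.39 to 19.4), so each was kept as a library of its own. Named genes were all members, the up to 3 largest rises and 3 largest falls per window among the other lymphoid genes past the threshold, the nearest gene of each member tested in all windows, and Kat7; Uqcr11 was named after its values were seen. Python 3.11.15, pandas 2.3.3 and matplotlib 3.10.9 made the summaries and plots.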

Additional observations from a re-analysis of the deposited data

How the results depend on the processing

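Of the alternative values of the members, 392 kept their direction and side of the threshold, 40 lost the call, 14 gained one and 42 changed sign, the last all without a call in either setting. Leaving out a library leaves its group with 1, which the fit assumes to vary like the other group. This step moved the members called from 3 to 0 in each case upstream, from 4 to between 0 and 5 over gene bodies, from 1 to between 0 and 1 downstream and from 1 to between 0 and 3 for the interaction. Over all genes the same step gave 0 to 2303 upstream (8885 with all libraries), 1430 to 11313 over bodies (8195), 695 to 4933 downstream (2831) and 1237 to 5814 for the interaction (3096). With a mean count of at least 50, the calls over all genes were 3357 upstream, 5426 over bodies, 1089 downstream and 1319 for the interaction, with 0 members downstream, where Tcf3 could not be tested, and 0 for the interaction. The members called in the interaction were 5 with library totals, 0 with pooled totals and 0 with receptor scaling. The median of all genes in the interaction was -0.59, 0.28 and 0.14 in these settings, against -0.06 as reported. The count of members thus differed in settings that also moved the median of all genes, and the cause was not tested. The GC correction left 2 members over bodies.

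Whether the replicate numbers pair the libraries could not be decided. The deviations of same-numbered libraries had correlations over genes of -0.284 upstream, -0.359 over bodies and -0.22 downstream. With 2 libraries per group, such a value rests on a single difference in each group and cannot show a shared or separate origin. With the replicate block, 4353 genes were called upstream and 3679 over bodies, with 2 members over bodies (Ikzf1 at 0.75 and Tcf3 at 1.31 did not pass) and without Ikzf1 upstream (1.47). The crossed replicate block called 11874 genes upstream, 12047 over bodies and 5187 downstream, with 4, 5 and 1 members. The interaction has a library term and so no further block.

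Scaling moved the split of higher and lower calls over all genes. Upstream it was 5557 higher and 3328 lower as reported, against 4342 and 3986 (library totals), 7668 and 458 (pooled totals) and 7056 and 87 (receptor scaling). Over bodies it was 4935 and 3260 as reported, against 6378 and 989, 5666 and 1360, and 6543 and 301 under those scalings. Downstream it was 2338 and 493 as reported, 2108 and 899 under library totals and 2203 and 137 under receptor scaling. The median of all genes shifted by 0.56 upstream with pooled totals and by 0.77 with receptor scaling, and over bodies by 0.35 with totals, 0.22 with pooled totals and 0.57 with receptor scaling. With pooled totals Notch1 passed upstream (1.76), as it did with receptor scaling (2.06).

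The values that changed sign were not all small (0.55 for Mef2c upstream with the GC correction, against -0.24 ± 0.46 as reported). With library totals they were -0.07 for Satb1 upstream, 0.18 for Il7r and 0.27 for Satb1 over bodies, -0.09 for Mef2c downstream, and -0.51 for Notch1, -0.36 for Satb1 and -0.27 for Tcf3 in the interaction. With pooled totals they were 0.26 for Dntt, 0.16 for Rag2 and 0.33 for Mef2c upstream, and 0.06 for Il7r and 0.14 for Satb1 over bodies. With receptor scaling they were 0.48 for Dntt, 0.31 for Rag2, 0.07 for Ccr9 and 0.53 for Mef2c upstream, and 0.38 for Il7r and 0.5 for Satb1 over bodies. The GC correction gave 0.02 for Rag2 and 0.55 for Mef2c upstream, and 0.09 for Il7r and 0.1 for Satb1 over bodies. A mean count of at least 50 gave 0.05 for Satb1 over the body. The body of Ccr9 was at -0.0038 with DESeq2 size factors, -0.0039 with the DESeq2 Wald test, and -0.01 with limma, with the replicate block and with the crossed block. Without 1 library each, values ranged upstream from -1.09 to 0.21 for Rag2, -0.07 to 0.33 for Satb1 and -0.52 to 0.12 for Mef2c. Over bodies they ranged from -0.58 to 0.21 for Il7r, -0.03 to 0.49 for Rag2, -0.15 to 0.04 for Satb1 and -0.2 to 0.27 for Ccr9. Downstream they ranged from -0.62 to 0.13 for Il7r, -0.43 to 0.07 for Notch1 and -0.03 to 0.87 for Ikzf1, and in the interaction from -0.04 to 0.46 for Satb1. The cause of these changes was not tested. Depth limits Rag1 in the knockouts (9 and 21 counts upstream) and Rag2 over its body (13 and 23).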
